A study of Mus musculus with 34 samples.

Results

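The 40 genes described here encode the extracellular matrix of the liver, the enzymes that cross-link and degrade it, and proteins that mark hepatic stellate cells and the myofibroblasts they can become. They were picked by gene name and make up 40 of the 21979 genes tested. Of these, 39 were found under the gene name on the array, and Lamb1 was found through its transcript accession. All 40 passed the filter on dim probes, and each was read at its brightest probe.

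RNA of mouse livers and liver tumors was measured on 34 Agilent 2-colour arrays, with each sample labelled with Cy3 and hybridised against Cy5-labelled liver RNA pooled over male and female C57BL/6 mice. The tumors were of end stage and had not received doxycycline: 7 carried a c-Myc transgene (Myc tumors), 3 a TGFα transgene (TGFα tumors) and 3 both transgenes (TGFα/Myc tumors). In 6 further groups of 3 livers each, the transgene had been turned off by 4 or 12 weeks on doxycycline, separately for Myc, TGFα and TGFα/Myc. The reference group was 3 normal livers with no transgene and no doxycycline (controls). The labels describe each sample as a biological replicate, but the same number stands in the deposited names of replicates 3 and 4 of the Myc tumors, which may thus come from 1 animal. With both averaged as 1 sample, 18 genes of the 40 were called against controls in place of 17. The labels give neither the strain, sex and age of the sampled mice nor the promoter that drives the transgenes. The livers after doxycycline are labelled as liver and not as tumor, so a loss of tumor tissue and a loss of the transgene cannot be told apart. Each value below is a log2 ratio of sample over reference liver, and each difference between groups is on the log2 scale, with its standard error from limma.

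The liver's matrix is built in layers. Fibrillar collagens give tensile strength, a loose basement membrane lies along the sinusoids and the vessels, and small proteoglycans, elastic fibres and fibronectin tie these together. Hepatic stellate cells store vitamin A while quiescent. After injury they turn into myofibroblasts, which contain smooth muscle actin and secrete fibrillar collagen, under the control of ligands such as TGF-beta and PDGF. Metalloproteinases cut the matrix, and their tissue inhibitors, the TIMPs, block them.

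There were 16 slides and 12 scan days, and between 44.1% and 72.1% of the probes on an array were well above background in Cy3. A second scanner was used for Myc tumors 2 to 7, whose scan days held no other group, and only Myc tumor 1 shared a scan day with a control. Myc tumors 2 to 7 were also read with another version of the extraction software than all other arrays. The 3 arrays set apart here, replicate 1 of TGFα off 4 weeks and replicates 2 and 3 of the TGFα tumors, had a reference channel that correlated with that of the other arrays at a median r of 0.719 to 0.728 across probes, against 0.872 to 0.984 for the 31 arrays that were fitted. Of 3 probes for Myc, the one with the widest range over the arrays read between 1.04 (replicate 5) and 6.25 (replicate 4) in Myc tumors, with a saturated 2.50 in replicate 1, against -1.07 to 0.17 in controls. The same probe read 4.65, 5.48 and 0.83 in TGFα/Myc tumors. A second probe read 2.68 to 4.66 in 6 of the Myc tumors and 0.10 in replicate 5, and 1.67, 3.03 and 0.07 in TGFα/Myc tumors, against -0.09 to 0.50 in controls, so the arrays labelled Myc tumor 5 and TGFα/Myc tumor 3 lay within the controls there. The third probe read -0.96 to 0.43 in Myc tumors, against -0.54 to 0.16 in controls. The array labelled TGFα tumor replicate 1, the only TGFα tumor left in the fit, is given as values only. This array read 3.55 at the second probe, a saturated 3.28 at the first and 1.37 at the third. It was on the same slide as the array labelled TGFα/Myc tumor 3. Without the arrays labelled Myc tumor 5, TGFα/Myc tumor 3 and TGFα/Myc off 4 weeks replicate 3, called the 3 arrays in doubt below, 18 of the 40 genes were called in Myc tumors against controls, and Col6a1 lost its call (adjusted p = 0.0581). The array of TGFα/Myc off 4 weeks replicate 3 had a mean r of 0.132 across genes with the others of its group, the lowest of the fitted arrays that had others in their group.

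In Myc tumors, the basement membrane collagens Col4a1 and Col4a2, the intermediate filament gene Vim, the protease inhibitor Timp1, the collagen I chain Col1a1 and the matricellular genes Thbs1 and Ccn2 were higher than in controls. The stellate cell glycoprotein Reln, the proteoglycan Dcn and the fibril-associated collagen Col14a1 were lower. Past the threshold, an adjusted p of 0.05 over all genes in limma, 14 of the 40 genes rose and 3 fell. Over all genes tested, 35.9% passed the same threshold, 18.8% higher and 17.1% lower, so the share of 42.5% among the 40 genes lay close to that of the arrays as a whole. The median difference was 0.48 over the 40 genes and -0.02 over all genes, and 27 of the 40 were higher. The heat map of the 31 arrays shows that the Myc tumors also differed among themselves: replicate 6 had a median log2 ratio of 1.48 over the 40 genes, and replicate 3 had -0.40.

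**Figure D1:**
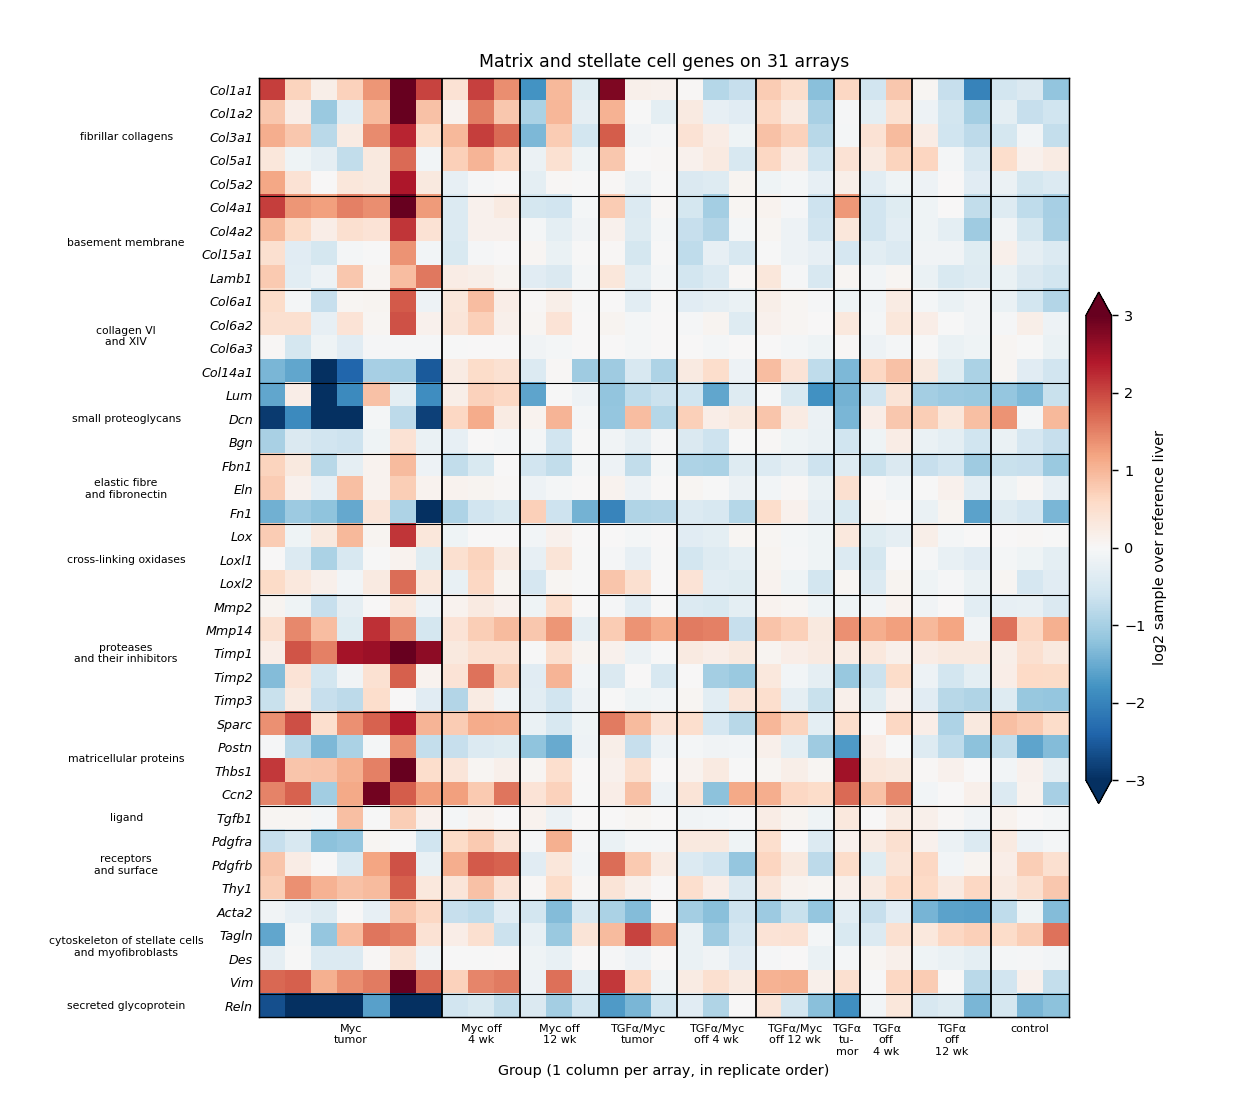
Log2 ratio of sample over reference liver (colour; values past 3 in size share the end colours) for the 40 genes, in rows by role, on the 31 fitted arrays, in columns by group. The Myc tumors read high in Col4a1, Timp1, Vim and Thbs1, except for Timp1 in replicate 1 (0.20), and low in Reln, Dcn and Col14a1. The array labelled TGFα tumor replicate 1 reads alike in Col4a1 (1.30), Thbs1 (2.53), Reln (-1.84), Dcn (-1.36) and Col14a1 (-1.34), and TGFα/Myc tumor 1 in Vim (2.13). Myc tumor replicate 6, with a median of 1.48, is the highest column.

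Among the fibrillar collagens, 2 of 5 rose in Myc tumors and none fell, beside 18.8% of all genes higher and 17.1% lower. Their median difference was 1.21. Col1a1, which encodes the main chain of collagen I, ran from 0.17 to 4.14 in Myc tumors with a median of 1.32, against -0.56, -0.44 and -1.18 in controls. All 7 tumors thus lay above all 3 controls, and the difference of 2.31 ± 0.74 had an adjusted p of 0.018. The other 2 kept probes of Col1a1 were dimmer, with tumor differences of 0.94 and 0.20, and the mean over its probes gave 1.20 (adjusted p = 0.0144). After 4 weeks without Myc, Col1a1 was still at 0.44, 2.04 and 1.40, and after 12 weeks it was spread over -1.80, 0.98 and -0.36. Only at 12 weeks did it differ from the tumors, by -1.98 ± 0.74 (adjusted p = 0.0451), and this call was lost in 5 of 10 fits with an array left out, without Myc tumor 1, 6 or 7 or without livers 1 or 3 at 12 weeks (adjusted p up to 0.301). Without control replicate 3 the tumor difference had an adjusted p of 0.0875.

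Col5a2, a chain of collagen V that is built into collagen I fibrils, lay between 0.02 and 2.42 in Myc tumors (median 0.34), against -0.18, -0.53 and -0.42 in controls. No control array was well above background for it, so the rise is also given as a bound. By group means, Col5a2 was at least 1.99-fold higher in Myc tumors (mean log2 signals 7.78 and 6.78). The fit of the ratios gave a difference of 1.08 (limma adjusted p = 0.00882). Such bounds compare group means of the sample channel alone, without their spread, after quantile normalization of the mean signal between arrays. They set a dim array at no less than its lowest signal that was well above background. Col3a1, the chain of collagen III, was at -0.82 to 2.29 in Myc tumors (median 0.81), against -0.52, -0.08 and -0.72 in controls, and these groups overlapped (1.24 ± 0.53, adjusted p = 0.073). The partner chain of Col1a1 in collagen I, Col1a2, had a difference of 1.21 ± 0.61 (adjusted p = 0.129) and Col5a1 one of -0.15 ± 0.36 (adjusted p = 0.786).

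In the basement membrane group, 3 of 4 genes rose, beside 18.8% of all genes. Col4a1 had the smallest adjusted p of the 40 genes. It ran from 1.24 to 3.05 in Myc tumors (median 1.39), and was at -0.40, 0.13 and 0.27 at 4 weeks off Myc, at -0.53, -0.57 and -0.07 at 12 weeks, and at -0.39, -0.77 and -0.99 in controls. Every tumor lay above every liver of these 3 groups. The tumors were higher than controls by 2.41 ± 0.33 (5.33-fold, adjusted p = 8.14e-06), and the livers off Myc lay below the tumors by 1.69 and 2.09, as differences of -1.69 ± 0.33 at 4 weeks (adjusted p = 0.000399) and -2.09 ± 0.33 at 12 weeks (adjusted p = 4.77e-05). The second kept probe of Col4a1, nearly as bright, gave a smaller tumor difference of 1.25. Averaged over both, the differences were 1.83 against controls (adjusted p = 8e-05), -1.21 at 4 weeks (adjusted p = 0.00379) and -1.58 at 12 weeks (adjusted p = 0.000414).

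Col4a2, the second chain of the same collagen IV trimer, followed with 0.21 to 2.15 in Myc tumors (median 0.47), -0.40, 0.13 and 0.12 at 4 weeks off Myc, -0.06, -0.29 and -0.10 at 12 weeks, and -0.11, -0.53 and -0.97 in controls. It rose by 1.29 ± 0.30 in the tumors (adjusted p = 0.00204) and was lower off Myc by -0.80 ± 0.30 at 4 weeks (adjusted p = 0.0471) and -0.90 ± 0.30 at 12 weeks (adjusted p = 0.0267). The 4 week call was lost without Myc tumor 1, 2 or 6 or any of the 3 livers (adjusted p up to 0.226), and the 12 week call without any of its 3 livers (up to 0.102). Both genes are known to lie head to head and to share a promoter region. In RefSeq, on build GRCm38.p6, their starts were 21 bases apart on opposite strands of chromosome 8. Lamb1, the laminin beta 1 chain, read -0.31 to 1.59 in Myc tumors (median 0.78), against -0.19, -0.43 and -0.55 in controls (0.92 ± 0.28, adjusted p = 0.0133, or 0.0694 without control replicate 3). It was lower at 12 weeks off Myc by -0.80 ± 0.28 (adjusted p = 0.0314, and up to 0.12 in the 5 fits that lost it, without Myc tumor 1, 4 or 6 or livers 1 or 2). The groups overlapped for Lamb1 and for Col15a1, a collagen of vessel basement membranes (0.29 ± 0.26, adjusted p = 0.414).

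The collagens VI and XIV moved in different directions. Col14a1 encodes collagen XIV, which sits on the surface of collagen I fibrils, and ran from -3.34 to -1.0 in Myc tumors (median -1.57). It was at 0.24, 0.56 and 0.45 at 4 weeks off Myc, at -0.40, 0.04 and -1.06 at 12 weeks, and at 0.05, -0.35 and -0.58 in controls. All tumors lay below all controls and all livers 4 weeks off Myc. It fell by 1.59 in the tumors (-1.59 ± 0.41, adjusted p = 0.00434) and was higher than in tumors by 2.30 ± 0.41 at 4 weeks (adjusted p = 0.000214) and by 1.41 ± 0.41 at 12 weeks (adjusted p = 0.0112, or 0.0857 without liver 2 of that group). Col6a1, a chain of the beaded collagen VI filaments, was at -0.68 to 1.84 in Myc tumors (median 0.05), against -0.21, -0.55 and -0.87 in controls, and passed narrowly (0.78 ± 0.31, adjusted p = 0.0498). Its call was lost without control 2 or 3 or Myc tumor 1 or 4 (adjusted p up to 0.227). Col6a2 did not pass (0.47 ± 0.27, adjusted p = 0.187), and Col6a3 was well above background in only 1 Myc tumor.

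Dcn, or decorin, a proteoglycan that binds collagen fibrils and TGF-beta, had the widest fall. It ran from -4.12 to -0.07 in Myc tumors (median -2.80), and was at 0.63, 1.11 and 0.25 at 4 weeks off Myc, at 0.10, 1.01 and -0.05 at 12 weeks, and at 1.35, -0.04 and 0.97 in controls. The tumors lay below all arrays of the other 3 groups. Dcn fell by 3.02 (-3.02 ± 0.61, adjusted p = 0.000504) and was 2.93 ± 0.61 and 2.62 ± 0.61 higher off Myc than in the tumors (adjusted p = 0.000803 and 0.00203). Lum, or lumican, which spaces collagen fibrils, was spread over -4.25 to 0.88 in Myc tumors, and did not pass against controls at -1.16, -1.33 and -0.67 (-0.21 ± 0.68, adjusted p = 0.845). Bgn, or biglycan, a relative of Dcn, did not pass either (0.12 ± 0.20, adjusted p = 0.697).

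Of the elastic fibre genes and fibronectin, Fbn1 (fibrillin 1, the microfibril scaffold) and Eln (elastin) rose by small amounts. Fbn1 was at -0.83 to 0.94 in Myc tumors (median 0.11), against -0.67, -0.70 and -1.12 in controls (0.94 ± 0.27, adjusted p = 0.00872, or 0.0682 without control replicate 3). Eln was at -0.24 to 0.90 (median 0.12), against -0.13, 0.03 and -0.24 (0.47 ± 0.17, adjusted p = 0.0371, and up to 0.155 without control 1 or 3 or Myc tumor 1, 4 or 6). Both genes overlapped between the groups. Fn1, or fibronectin, which hepatocytes also secrete into plasma, ran from -3.02 to 0.37 in tumors, against -0.38, -0.50 and -1.37 in controls, and did not pass (-0.51 ± 0.50, adjusted p = 0.451).

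Among the lysyl oxidases, which cross-link collagen and elastin, Loxl2 rose in Myc tumors and Loxl1 was higher 4 weeks after Myc was turned off. Loxl2 was at -0.08 to 1.67 in tumors (median 0.32), against 0.05, -0.51 and -0.35 in controls (0.73 ± 0.28, adjusted p = 0.0427, and up to 0.17 without control 2 or 3 or Myc tumor 1 or 6). Loxl1 was at 0.47, 0.66 and 0.26 at 4 weeks off Myc, against -0.95 to 0.11 in tumors (median -0.36). These groups did not overlap, and the difference was 0.76 ± 0.17 (adjusted p = 0.00183). Lox was well above background in 4 of 7 Myc tumors and in no control (0.62 ± 0.28, adjusted p = 0.0822).

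Of 5 metalloproteinases and inhibitors, only Timp1, a secreted inhibitor of metalloproteinases, passed the threshold, beside 35.9% of all genes in Myc tumors against controls. It ran from 0.20 to 3.92 in Myc tumors with a median of 2.50. It was at 0.30, 0.45 and 0.46 at 4 weeks off Myc, at -0.01, 0.47 and 0.09 at 12 weeks, and at 0.17, 0.49 and 0.30 in controls. Myc tumors 2 to 7 all lay above every liver, at 1.50 or more, and Myc tumor 1 was at 0.20, within the range of the controls. The difference from controls was 1.86 ± 0.41 (3.63-fold, adjusted p = 0.00123), and the livers off Myc differed from the tumors by -1.78 ± 0.41 at 4 weeks (adjusted p = 0.00212) and by -2.00 ± 0.41 at 12 weeks (adjusted p = 0.000756). Myc tumor 1 is the only Myc tumor read on the scanner that read the controls, and within its scan day the tumor minus control difference of Timp1 was -0.29. The second kept probe of Timp1 gave a tumor difference of 0.82. With scan day as a block, which leaves Myc tumor 1 as the only informative tumor, the livers off Myc differed in Timp1 by 0.21 (4 weeks against tumors, adjusted p = 0.62) and 0.59 (12 weeks against tumors, adjusted p = 0.563). Scanner and tumor cannot be told apart for Myc tumors 2 to 7.

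The other inhibitors and proteases did not pass against controls: Timp3, which is bound to matrix, had a difference of 0.66 ± 0.29 (adjusted p = 0.0793), and Timp2 had -0.35 ± 0.44 (adjusted p = 0.573). The gelatinase Mmp2 was at 0.19 ± 0.15 (adjusted p = 0.359) and its membrane-bound activator Mmp14 at -0.31 ± 0.51 (adjusted p = 0.671). Their Myc tumor values overlapped with the controls in each case.

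Among the matricellular genes, which signal from the matrix to cells, Thbs1 and Ccn2 rose. Thbs1, or thrombospondin 1, an activator of latent TGF-beta, was at 0.52 to 3.49 in Myc tumors (median 1.07), at 0.37, 0.07 and 0.15 at 4 weeks off Myc, at 0.05, 0.50 and 0.00 at 12 weeks, and at -0.09, 0.12 and -0.28 in controls. The tumors lay above all these livers. No control was well above background, and by group means Thbs1 was at least 2.50-fold higher in the tumors. The fit of the ratios gave a difference of 1.57 (limma adjusted p = 0.00227). Thbs1 differed off Myc by -1.29 ± 0.38 at 4 weeks (adjusted p = 0.0106, or 0.0508 without liver 2) and by -1.31 ± 0.38 at 12 weeks (adjusted p = 0.00984). The other kept probes of Thbs1 were dimmer, with tumor differences of 0.02 and 0.14, and with the mean over probes the calls off Myc were lost (-0.50 at 4 weeks, adjusted p = 0.0764, and -0.53 at 12 weeks, adjusted p = 0.0621).

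Ccn2, known as connective tissue growth factor, was at -1.04 to 2.90 in Myc tumors (median 1.48), against -0.42, 0.10 and -1.0 in controls. Only replicate 3 was below the highest control, and the difference was 1.77 ± 0.53 (adjusted p = 0.0117, or 0.0835 without control replicate 3). At 4 weeks off Myc it was still at 1.24, 0.78 and 1.60. Sparc, or osteonectin, which binds collagen, did not pass in tumors (0.74 ± 0.35, adjusted p = 0.111). The second kept probe of Sparc, nearly as bright, gave a smaller tumor difference of 0.24. At 12 weeks off Myc the brightest probe of Sparc read -0.21, -0.49 and -0.12, against 0.51 to 2.37 in Myc tumors (median 1.38), without overlap. The difference was -1.75 ± 0.35 (adjusted p = 0.000616). Postn, or periostin, had 0.84 ± 0.40 (adjusted p = 0.108) in tumors against controls.

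The ligand Tgfb1 and the receptors gave no call in Myc tumors against controls. Tgfb1 was at -0.07 to 0.90 in Myc tumors, against 0.11, 0.00 and -0.06 in controls (0.24 ± 0.16, adjusted p = 0.25). Pdgfra, a PDGF receptor of fibroblasts and quiescent stellate cells, was at -1.23 to 0.05 in tumors (median -0.60), against 0.27, -0.16 and -0.06 (-0.61 ± 0.26, adjusted p = 0.0708). It read 0.58, 0.78 and 0.38 at 4 weeks off Myc and -0.04, 1.07 and -0.03 at 12 weeks, which was higher than in tumors by 1.17 ± 0.26 (adjusted p = 0.00141) and by 0.93 ± 0.26 (adjusted p = 0.00832, or 0.14 without liver 2 at 12 weeks). The 4 week livers lay above all tumors.

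Pdgfrb, the PDGF receptor of stellate cells and pericytes, had nearly no difference between tumors and controls (0.03 ± 0.41, adjusted p = 0.968). At 4 weeks off Myc it was at 1.08, 1.85 and 1.77, against -0.40 to 1.90 in tumors (median 0.22), and passed narrowly (1.07 ± 0.41, adjusted p = 0.0484, and up to 0.182 in the 7 fits that lost it, without Myc tumor 2, 3, 4 or 7 or any of the 3 livers). The surface protein Thy1, found on portal fibroblasts and some lymphocytes, was at 0.03, 0.54 and 0.04 at 12 weeks off Myc, against 0.31 to 1.80 in tumors (median 0.94), a difference of -0.81 ± 0.23 (adjusted p = 0.0097, and up to 0.0615 without liver 1 or 3). Both of these pairs of groups overlapped.

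In the cytoskeleton group, 2 of 4 genes rose, beside 18.8% of all genes. Vim, or vimentin, the intermediate filament of mesenchymal cells, was at 1.07 to 3.36 in Myc tumors (median 1.73), at 0.68, 1.47 and 1.56 at 4 weeks off Myc, at -0.15, 1.65 and -0.26 at 12 weeks, and at -0.58, 0.14 and -0.71 in controls. All tumors lay above all controls (2.19 ± 0.48, adjusted p = 0.000998). Vim was lower than in tumors at 12 weeks (-1.40 ± 0.48, adjusted p = 0.0278, and up to 0.167 without Myc tumor 6 or livers 1 or 3), and did not pass at 4 weeks. Acta2, the smooth muscle actin that marks myofibroblasts, was at -0.39 to 0.86 in tumors (median -0.11), against -0.77, -0.14 and -1.31 in controls, and the groups overlapped (0.81 ± 0.29, adjusted p = 0.031, and up to 0.253 without control 1 or 3 or Myc tumor 6 or 7). Between Myc tumor 1 and control 2, which shared a scan day, its difference was 0.03. At 12 weeks off Myc it read -0.54, -1.30 and -0.47, below all tumors (-0.84 ± 0.29, adjusted p = 0.0285, and up to 0.217 without Myc tumor 6 or 7 or liver 2).

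Tagln, or transgelin, an actin-binding protein of smooth muscle, spread from -1.56 to 1.60 over the tumors and did not pass (-0.73 ± 0.52, adjusted p = 0.296). Its dimmer second probe gave 0.76, with the opposite sign. Des, or desmin, the muscle-type filament that marks rodent stellate cells, did not pass (-0.05 ± 0.12, adjusted p = 0.755).

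Reln, or reelin, is a secreted glycoprotein that stellate cells make in the liver. It ran from -4.96 to -1.62 in Myc tumors (median -3.52), and was at -0.58, -0.45 and -0.74 at 4 weeks off Myc, at -0.43, -1.02 and -0.59 at 12 weeks, and at -0.52, -1.36 and -1.24 in controls. Each tumor lay below each of these livers. Reln fell by 2.37 in the tumors (-2.37 ± 0.46, adjusted p = 0.000393) and was higher off Myc than in the tumors by 2.82 ± 0.46 (adjusted p = 9.39e-05) and 2.73 ± 0.46 (adjusted p = 0.000115). The plot of single arrays shows this pattern for Reln, Dcn and Col14a1 beside the opposite one for Col4a1 and Timp1.

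**Figure D2:**
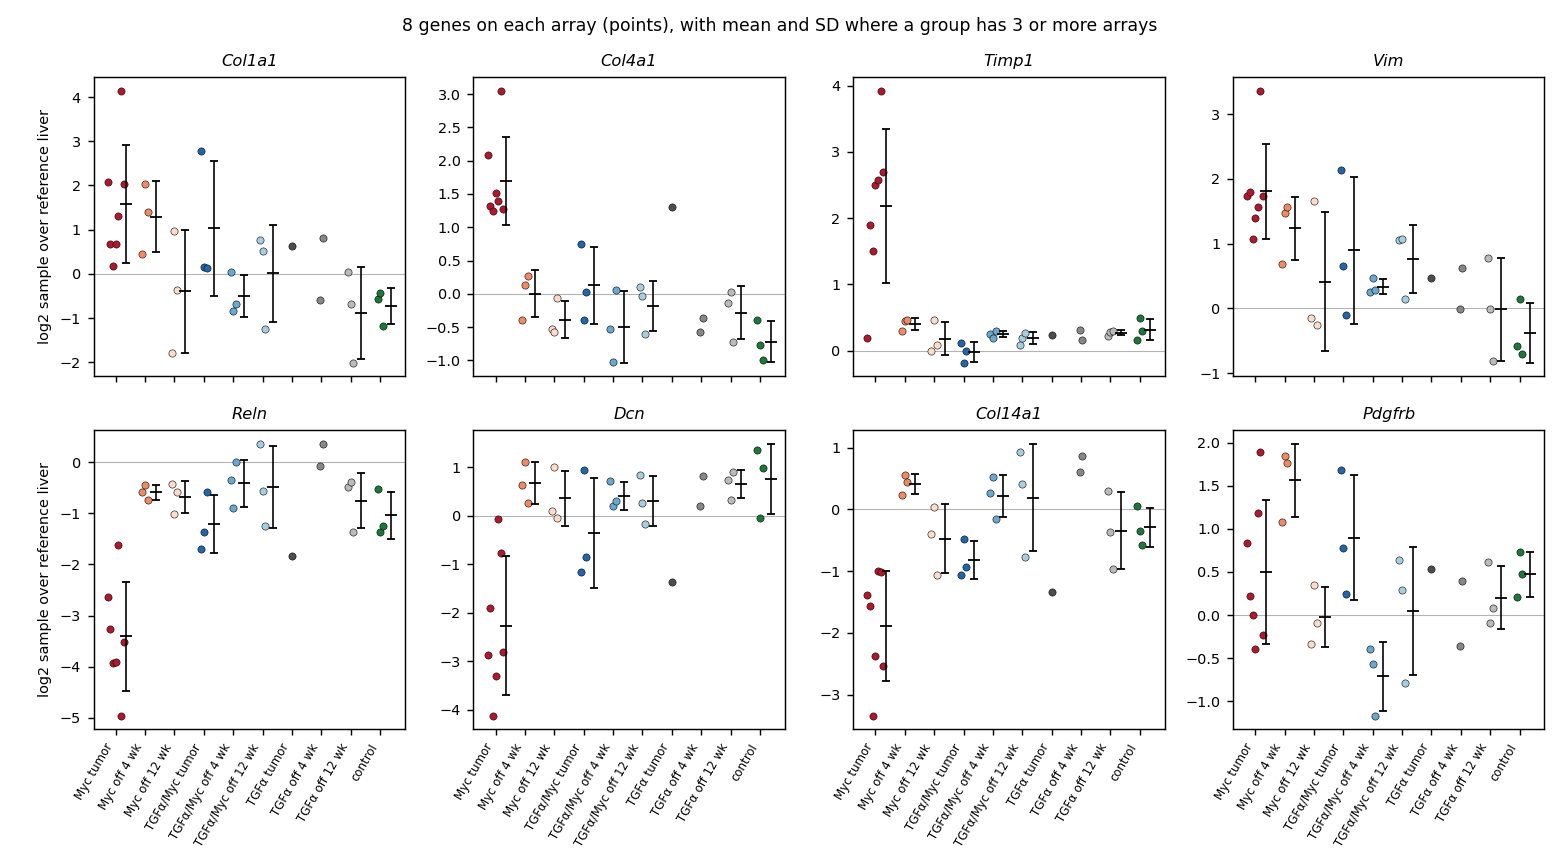
Log2 ratio of sample over reference liver for 8 genes on each fitted array (points), by group, with the mean and SD beside groups of 3 or more arrays. In Col4a1 every Myc tumor is at 1.24 or above and every control at -0.39 or below, and in Reln every Myc tumor is at -1.62 or below, with no liver of the other Myc groups or the controls that low.

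Of the 17 genes called in Myc tumors, 9 were called in each of the 10 fits that left out a single tumor or control: Col4a1, Col4a2, Col5a2, Thbs1, Vim, Timp1, Reln, Dcn and Col14a1. The groups did not overlap for 9 of the 40 genes, all of them called, where 21.6% of all genes had groups that did not overlap. The dimmer kept probes gave smaller differences for Col14a1 (-0.08), Fbn1 (0.45) and Loxl2 (0.37), the last of which lost its call with the mean over probes (adjusted p = 0.0526). Scan day could be taken into account only through Myc tumor 1 and control 2, which shared a day, and a fit with scan day as a block gave the difference between these arrays. In this single pair 16 of the 17 genes had the sign of the whole comparison, with Acta2 at only 0.03, and Timp1 the opposite one. Both arrays are among those that gave the calls, so equal signs are in part built in. The pair differed by 2.85 for Col4a1, 2.50 for Col1a1, 1.59 for Vim, -2.84 for Dcn, -1.28 for Reln and -1.04 for Col14a1. In the same order, the differences of the whole comparison were 2.41, 2.31, 2.19, -3.02, -2.37 and -1.59. Being 1 tumor and 1 control, the pair does not show the spread within either group.

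Promoters are shown for their motif content, as the 250 bases before the annotated start on GRCm38.p6. Of the 9 genes called in each of these fits, Col4a1, Col4a2, Timp1, Vim and Reln had a RefSeq window. Those of Col4a1 and Col4a2 lay past the start of the other gene, in its transcribed direction, and are not printed. This leaves Timp1 and Vim, which were called higher (Timp1 not being high in Myc tumor 1), and Reln, which was called lower. Capitals mark every match, on either strand, to any of 4 motifs: the TATA box, searched as TATAAA, the CCAAT box, searched by those letters, the GC box, searched as GGGCGG, and the E-box that Myc is known to bind, searched as CACGTG. None of the matches overlap. The windows are chrX:20869916-20870165 (plus strand, Timp1), chr2:13574061-13574310 (plus strand, Vim) and chr5:22344706-22344955 (minus strand, Reln).
Timp1: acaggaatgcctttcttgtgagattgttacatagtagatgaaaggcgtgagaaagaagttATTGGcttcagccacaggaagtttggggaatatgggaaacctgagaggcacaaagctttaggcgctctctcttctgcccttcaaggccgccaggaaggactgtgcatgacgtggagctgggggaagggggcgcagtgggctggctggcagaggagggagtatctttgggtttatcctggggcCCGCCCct
Vim: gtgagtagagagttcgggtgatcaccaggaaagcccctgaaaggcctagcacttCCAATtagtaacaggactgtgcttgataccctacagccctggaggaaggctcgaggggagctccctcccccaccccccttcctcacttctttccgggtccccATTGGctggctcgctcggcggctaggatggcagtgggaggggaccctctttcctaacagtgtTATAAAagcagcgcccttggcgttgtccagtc
Reln: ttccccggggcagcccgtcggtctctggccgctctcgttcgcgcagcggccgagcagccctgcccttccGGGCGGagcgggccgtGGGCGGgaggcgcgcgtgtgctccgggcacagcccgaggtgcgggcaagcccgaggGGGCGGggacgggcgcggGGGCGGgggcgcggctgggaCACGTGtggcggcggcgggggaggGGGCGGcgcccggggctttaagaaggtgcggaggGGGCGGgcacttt
Timp1 held 1 CCAAT and 1 GC box, and Vim held 2 CCAAT matches and 1 TATA box. Reln, the gene that was low in the tumors, held 6 GC boxes and the only CACGTG among the 26 windows of the 24 genes that matched the RefSeq table, starting 71 bases before the start. CACGTG was in 6.02% of all 32851 windows and in 3.85% of these 26, and CCAAT in 33.8% of all windows and in 30.8% of these. TATAAA was in 12.4% of all and in 11.5% of these, and GGGCGG in 32.7% of all and in 57.7% of these. A match describes the letters of the window and not a bound site.

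The other matrix genes of Myc tumors went both ways, beside 18.8% of all genes higher and 17.1% lower. Of 26 measured genes of other matrix structure, 9 rose and 4 fell (median 0.29): the laminin alpha chain Lama5 was 2.03 ± 0.32 higher (adjusted p = 4.13e-05) and the basement membrane linker Nid2 1.27 ± 0.24 higher (adjusted p = 0.00033), and Ecm1 fell by 2.50 (-2.50 ± 0.39, adjusted p = 3.76e-05) and Efemp1 by 1.98 (-1.98 ± 0.35, adjusted p = 0.000167). Of 14 collagen processing genes, 4 rose and 2 fell (median 0.21), among them the prolyl hydroxylase subunit P4ha1 (0.88 ± 0.24, adjusted p = 0.00536) and Bmp1, which cleaves the procollagen tail (-1.48 ± 0.34, adjusted p = 0.00149). Of 20 other proteases and inhibitors, 6 rose and 5 fell (median 0.21), with the collagenase Mmp13 1.22 ± 0.21 higher (adjusted p = 0.000116), the plasminogen activator Plat 1.56 ± 0.23 higher (adjusted p = 2.26e-05) and the membrane-bound Mmp15 lower (-1.58 ± 0.17, adjusted p = 8e-07).

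Of 27 genes of TGF-beta and PDGF signalling, 4 rose and 3 fell (median 0.09), beside 18.8% of all genes higher and 17.1% lower. Smad7, the inhibitory Smad, fell by 2.11 (-2.11 ± 0.35, adjusted p = 6.51e-05). Of 8 smooth muscle contractile genes, 2 rose and 1 fell (median 0.32), led by the tropomyosin Tpm1 (1.80 ± 0.17, adjusted p = 1.56e-07) and the caldesmon gene Cald1 (-1.73 ± 0.34, adjusted p = 0.000367).

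Of 11 markers of quiescent stellate cells, 7 fell in Myc tumors and none rose, beside 17.1% of all genes lower and 18.8% higher, and the median difference over the 11 was -0.95. Ngfr, a nerve growth factor receptor of stellate cells, differed by -2.33 ± 0.31 (adjusted p = 6.01e-06), the transcription factor gene Lhx2 by -2.52 ± 0.36 (adjusted p = 1.76e-05), and Lrat, which esterifies vitamin A for storage, by -1.98 ± 0.46 (adjusted p = 0.00188). The mean log2 ratio of the 11 markers was -1.90 to -0.62 per array in Myc tumors, -0.03 to 0.17 at 4 weeks off Myc, -0.34 to -0.24 at 12 weeks, and -0.30 to 0.05 in controls. In tumors against controls, 7 of 10 hepatocyte markers (median -1.54), 4 of 10 endothelial markers (median -0.85, 1 higher), 4 of 9 macrophage markers (median -0.41, 3 higher) and 2 of 6 biliary markers (median -0.18) fell too. The mean over the hepatocyte markers was -3.16 to -0.80 per array in Myc tumors, against -0.25 to -0.11 in controls, and all 10 were above background on the median array of both groups. Of the skeletal muscle markers, 2 of 5 rose (median 0.25), of the portal fibroblast markers 1 of 5 rose and 1 fell (median -0.07), of the mesothelial markers 1 of 5 fell (median -0.03), and of 5 adipocyte markers none passed (median 0.06). The part of these cell types in the changes of the 40 genes was not tested. In bulk tissue, fewer cells of a type and less RNA per cell cannot be told apart.

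Turning Myc off was followed by differences from the tumors in 10 of the 40 genes at 4 weeks, with 6 higher and 4 lower, against 31.7% of all genes called (14.2% higher and 17.5% lower). At 12 weeks 14 of the 40 differed, with 4 higher and 10 lower, against 31.5% of all genes (15% higher and 16.5% lower). The median difference of the 40 genes was -0.11 at 4 weeks and -0.48 at 12 weeks, beside 0.01 and 0.00 over all genes. These comparisons and that of the tumors with controls share the tumor arrays, so their values are set side by side only. At 4 weeks the genes higher than in tumors were Reln, Dcn, Col14a1, Pdgfra, Pdgfrb and Loxl1, and the lower ones were Col4a1, Col4a2, Timp1 and Thbs1. At 12 weeks the higher ones were Reln, Dcn, Col14a1 and Pdgfra, and the lower ones were Col1a1, Col4a1, Col4a2, Lamb1, Acta2, Vim, Thy1, Timp1, Sparc and Thbs1. The plot of the 3 Myc comparisons gives all 40 differences.

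**Figure D3:**
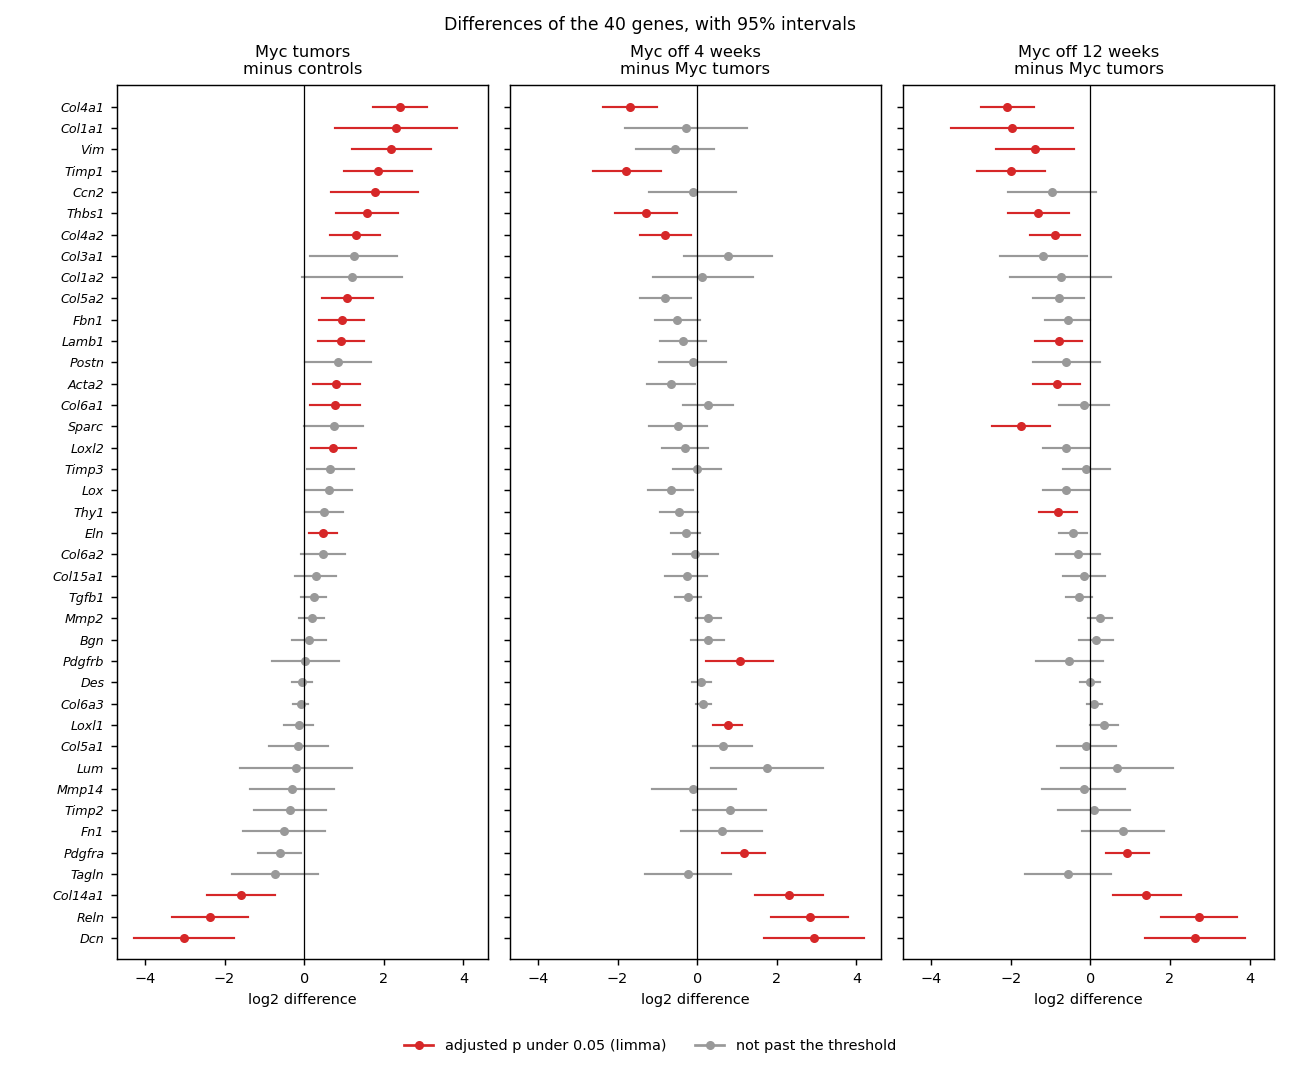
Log2 differences of the 40 genes (points) with 95% intervals (lines) in Myc tumors minus controls, Myc off 4 weeks minus Myc tumors and Myc off 12 weeks minus Myc tumors, in the order of the left panel. Red marks an adjusted p under 0.05, which 17, 10 and 14 genes reached.

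The markers of quiescent stellate cells were higher than in tumors in 8 of 11 cases at 4 weeks (median 1.37) and in 6 of 11 at 12 weeks (median 1.06), with none lower. Ngfr differed by 1.97 ± 0.31 at 4 weeks (adjusted p = 5.18e-05) and by 1.44 ± 0.31 at 12 weeks (adjusted p = 0.000934). Of 10 hepatocyte markers 9 were higher at 4 weeks (median 1.76) and 7 at 12 weeks (median 1.66), and of 10 endothelial markers 6 (median 0.98) and 5 (median 0.95). Among the other matrix genes, Lama5 was lower than in tumors by -1.75 ± 0.32 (adjusted p = 0.000229) and -2.27 ± 0.32 (adjusted p = 1.52e-05) at 4 and 12 weeks. Serpinh1, the collagen chaperone, was lower at 12 weeks (-2.18 ± 0.62, adjusted p = 0.00962). In counts, 9 of 26 other structural genes were higher and 4 lower at 4 weeks (median -0.11). At 12 weeks 5 were higher and 8 lower (median -0.37). Over all genes, 14.2% were higher and 17.5% lower at 4 weeks, and 15% were higher and 16.5% lower at 12 weeks.

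Between the off livers and the tumors, 7 of the 10 genes called at 4 weeks and 6 of the 14 called at 12 weeks were called in each of the 10 fits with an array left out. With scan day as a block, the comparison at 4 weeks rested on the 3 livers and Myc tumor 1, which shared a day. There 9 of the 10 differences had the same sign, with Timp1 turned. These arrays also entered the main fit, so equal signs are in part built in. No scan day held Myc tumors and livers 12 weeks off Myc together. The blocked fit reached this comparison only through other groups and Myc tumor 1, called none of the 14 genes, and turned the sign of 3, Timp1 (0.59), Vim (0.64) and Thy1 (0.01).

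Against controls, no gene of the 40 passed the threshold in livers 4 weeks off Myc in limma, where 0.00455% of all genes, a single gene, did. At an unadjusted p under 0.05 there were 8 of the 40 genes and 957 of 21978 genes. Of the 40 genes, 36 were higher than in controls, with a median difference of 0.45, beside -0.01 over all genes. All were read in the same 3 livers and 3 controls, so the genes are not independent replicates, and this count was not tested. For 17 of the 40 all 3 livers lay above all 3 controls, and for 1, Tagln, below, where 16.5% of all genes had groups that did not overlap. Col3a1 was at 0.97, 2.07 and 1.70 in livers 4 weeks off Myc, against -0.52, -0.08 and -0.72 in controls (2.02 ± 0.63, adjusted p = 0.771). Pdgfrb was at 1.08, 1.85 and 1.77, against 0.21, 0.73 and 0.48 (1.09 ± 0.48), and Lum at 0.17, 0.68 and 0.62, against -1.16, -1.33 and -0.67 (1.54 ± 0.80). The fibrillar collagens had a median difference of 1.34, and the markers of quiescent stellate cells one of 0.03. All 3 of these livers were scanned on the day of control 2, and against that control alone the median over the 40 genes was 0.46.

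At 12 weeks off Myc no gene of the 40 passed against controls, beside 0.159% of all genes. Their median difference was 0.14, and 3 of the 40 had an unadjusted p under 0.05, beside 2575 of all genes. Between 12 and 4 weeks, again none of the 40 passed, beside 0.00455% of all genes, and 3 of the 40 and 1556 of all genes had an unadjusted p under 0.05. Of the 40, 3 were higher at 12 weeks, and the median difference was -0.28, with the same livers at 4 weeks as above. This median was -1.09 with Agilent's processed signals, -1.18 with the series table and -0.34 with scan day as a block. No scan day or slide held livers of both groups. Per array, 66.67% to 71.85% of probes were well above background at 4 weeks, against 47.62% to 63.12% at 12 weeks. The part of scan day and depth in these differences was not tested. In 10 of the 40, all livers at 12 weeks lay below all livers at 4 weeks, and in none above, where 19% of all genes had groups that did not overlap. These included Pdgfrb, at -0.34, 0.35 and -0.09 at 12 weeks (-1.59 ± 0.48, adjusted p = 0.404), Col3a1, at -1.35, 0.77 and -0.56 (-1.96 ± 0.63, adjusted p = 0.445), and Sparc, at -0.21, -0.49 and -0.12 at 12 weeks against 0.77, 1.12 and 1.08 at 4 weeks (-1.27 ± 0.42, adjusted p = 0.47).

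TGFα/Myc tumors differed from controls in none of the 40 genes in limma, where 2.13% of all genes were called. At an unadjusted p under 0.05 there were 5 of the 40 and 3126 of all genes. The median difference was 0.18, and replicate 1 stood above the other two in Col1a1, Col1a2, Col3a1 and Col5a1, but not clearly in Col5a2 (0.04, -0.18 and -0.01). Col1a1 was at 2.79, 0.15 and 0.14 in TGFα/Myc tumors, against -0.56, -0.44 and -1.18 in controls (1.75 ± 0.88). Col4a1 was at 0.75, -0.40 and 0.03, and Vim at 2.13, 0.65 and -0.10. Reln was at -1.69, -1.37 and -0.59, a range that overlapped the controls.

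Set against Myc tumors directly, TGFα/Myc tumors were lower in 6 of the 40 genes and higher in 2, beside 25% of all genes called (13% lower and 12% higher). Timp1 was at 0.12, -0.18 and -0.01 in TGFα/Myc tumors, below all 7 Myc tumors (-2.20 ± 0.41, adjusted p = 0.000642), and Col4a1 was also below all of them (-1.57 ± 0.33, adjusted p = 0.00149). Thbs1, at 0.13, 0.49 and 0.01, differed by -1.28 ± 0.38 (adjusted p = 0.0151), Col4a2 by -0.85 ± 0.30 (adjusted p = 0.0438), Thy1 by -0.82 ± 0.23 (adjusted p = 0.0119) and Acta2 by -0.82 ± 0.29 (adjusted p = 0.0401). Reln was higher in TGFα/Myc tumors by 2.19 ± 0.46 (adjusted p = 0.00172) and Dcn, at -1.17, 0.93 and -0.85, by 1.90 ± 0.61 (adjusted p = 0.0248). Of the quiescent stellate cell markers, 7 of 11 were higher in TGFα/Myc tumors than in Myc tumors (median 1.56), as were 6 of 10 hepatocyte markers (median 1.26) and 6 of 10 endothelial markers (median 1.10). Timp1, Col4a1 and Reln were called in each of the 10 fits with an array left out, and the other 5 were lost in at least 1: Dcn without TGFα/Myc tumor 2 (adjusted p = 0.245), Thbs1 without TGFα/Myc tumor 3 (0.0637), Thy1 without either of these (up to 0.061), Acta2 without TGFα/Myc tumor 1 or 2 or Myc tumor 6 or 7 (up to 0.309), and Col4a2 without any TGFα/Myc tumor or Myc tumor 1 or 6 (up to 0.215). With the mean over probes Thbs1 lost its call (adjusted p = 0.0849), as it did without the 3 arrays in doubt (0.0683), where Col4a2 lost its own too (0.0632). No scan day held tumors of both kinds. With scan day as a block, where Myc tumor 1 is the only informative Myc tumor, 1 of the 8 genes was called, Thbs1 (-1.61, adjusted p = 0.034), and Timp1 turned its sign (0.09, adjusted p = 0.948), with Reln at 0.28 (adjusted p = 0.938).

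After 4 weeks with both transgenes off, 2 of the 40 genes were lower than in TGFα/Myc tumors and none higher, beside 8.19% of all genes called (4.16% lower and 4.02% higher). Pdgfrb was at -0.40, -0.57 and -1.17 in livers 4 weeks off TGFα/Myc, against 1.68, 0.78 and 0.24 in TGFα/Myc tumors (-1.61 ± 0.48, adjusted p = 0.0381). Tagln was at -0.21, -1.07 and -0.50, against 0.96, 2.02 and 1.30 (-2.02 ± 0.62, adjusted p = 0.0442). Neither gene overlapped between the groups, but Tagln lost its call in each of the 6 fits with an array left out (adjusted p up to 0.166) and Pdgfrb in 5 of 6 (up to 0.243). Without the 3 arrays in doubt the values were -1.72 for Pdgfrb (adjusted p = 0.0532) and -2.13 for Tagln (adjusted p = 0.068), and with the mean over probes Tagln was at -1.03 (adjusted p = 0.15). Among the other matrix genes the basement membrane linker Nid1 was lower (-1.65 ± 0.40, adjusted p = 0.0122), with Lama5 (-1.28 ± 0.38, adjusted p = 0.0352) and Lamb2 (-0.66 ± 0.21, adjusted p = 0.0486).

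At 12 weeks off both transgenes none of the 40 differed from TGFα/Myc tumors, beside 4.64% of all genes, with 2 of the 40 and 3511 of all genes at an unadjusted p under 0.05. Fn1 had the smallest p, at 0.53, 0.14 and -0.28 in livers 12 weeks off TGFα/Myc, against -1.99, -0.91 and -0.87 in TGFα/Myc tumors (1.39 ± 0.59, adjusted p = 0.219). Against controls, none of the 40 passed at 4 weeks off both transgenes, beside 5.6% of all genes, or at 12 weeks, beside 0.0182%. At an unadjusted p under 0.05 there were 6 of the 40 and 4294 of all genes at 4 weeks, and 1 of the 40 and 2094 of all genes at 12 weeks. Between 12 and 4 weeks none passed, beside 0.892% of all genes, with 1 of the 40 and 2918 of all genes at an unadjusted p under 0.05.

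The response to turning the transgenes off, as the difference of the off livers from their own tumors, differed between TGFα/Myc and Myc in 3 of the 40 genes at 4 weeks, 1 upward and 2 downward, beside 14.3% of all genes (7.31% upward and 6.98% downward). Pdgfrb was lower than in the tumors in the TGFα/Myc livers (-1.61 ± 0.48) and higher in the Myc livers (1.07 ± 0.41), a difference of responses of -2.68 ± 0.63 (adjusted p = 0.00697). Loxl1 was at -0.54, -0.39 and -0.29 in livers 4 weeks off TGFα/Myc, a response of -0.30 ± 0.21, against 0.76 ± 0.17 in Myc livers, and these differed by -1.07 ± 0.27 (adjusted p = 0.0112). Timp1 had a response of 0.27 ± 0.49 in TGFα/Myc livers and of -1.78 ± 0.41 in Myc livers (2.05 ± 0.64, adjusted p = 0.0343), and its call was lost in 8 of the 16 fits with an array left out (adjusted p up to 0.0854) and with the mean over probes (1.44, adjusted p = 0.0661). Pdgfrb and Loxl1 were called in all 16. Without the 3 arrays in doubt the differences were -2.90 for Pdgfrb (adjusted p = 0.00742), -1.13 for Loxl1 (adjusted p = 0.0183) and 1.97 for Timp1 (adjusted p = 0.0865), and no fit with scan day as a block could be had for this comparison. At 12 weeks none of the 40 differed in response, beside 2.93% of all genes, and 6 of the 40 and 4274 of all genes had an unadjusted p under 0.05. Col4a1 (1.78 ± 0.50, adjusted p = 0.0539) and Timp1 (2.21 ± 0.64, adjusted p = 0.0595) came nearest.

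**Figure D4:**
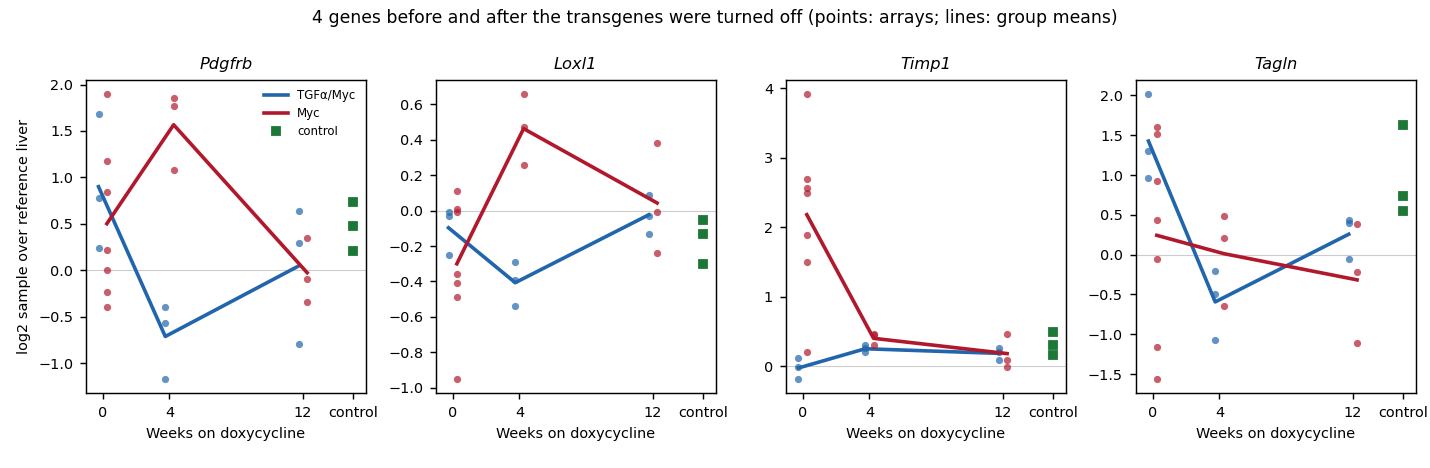
Log2 ratio of sample over reference liver against weeks on doxycycline for 4 genes, for TGFα/Myc (blue) and Myc (red) arrays (points) with group means (lines), and for controls (green squares). At 4 weeks Pdgfrb lies between -1.17 and -0.40 in TGFα/Myc livers and between 1.08 and 1.85 in Myc livers.

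Of the TGFα arrays, the array labelled TGFα tumor replicate 1 read 2.53 for Thbs1, 1.71 for Ccn2, 1.30 for Col4a1, 0.62 for Col1a1, -1.84 for Reln, -1.36 for Dcn and -1.34 for Col14a1, and no test was made with it. Livers 4 weeks off TGFα (2 arrays) differed from controls in none of the 40 genes, beside 0.751% of all genes, with 2 of the 40 and 2542 of all genes at an unadjusted p under 0.05. Their median difference was 0.20, and 15 of the 40 lay above all controls and 2 below, where 36.1% of all genes had groups that did not overlap. Ccn2 was at 0.87 and 1.45 in these livers, against -0.42, 0.10 and -1.0 in controls (1.60 ± 0.70, adjusted p = 0.362). At 12 weeks off TGFα none of the 40 passed, beside 0.105% of all genes, the median difference was 0.02, and 2 of the 40 and 1712 of all genes had an unadjusted p under 0.05. Acta2 had the smallest p there, at -1.39, -1.60 and -1.64, against -0.77, -0.14 and -1.31 in controls (-0.81 ± 0.34, adjusted p = 0.54). On the 3 arrays set apart, the median of the 40 genes was 0.22 and 0.45 in TGFα tumors 2 and 3 and -0.05 in TGFα off 4 weeks replicate 1, against their own reference profile.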

How the data were processed

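The members, gene lists and tests were chosen with earlier results of these data known, and the text names any of the 40 genes and, of each other list, up to 4 genes with the smallest adjusted p in a comparison. Intensities were deposited as Agilent Feature Extraction output, and the submitters' processing notes name limma without a version. Per the file headers, the extraction version was 10.7.3.1 for Myc tumors 2 to 7 and 9.1.3.1 for all other arrays. The deposited series table holds log10 or log2 ratios of red over green, judged from its correlation with the scanner's deposited log10 LogRatio column; its background, dye and centring steps and its log base are not given in the sources used here, and it served as an alternative with its sign turned.

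From the deposited mean and background intensities, limma 3.58.1 in R 4.3.3 computed normexp background correction (offset 50) and loess within arrays, with control spots at weight 0 and no scaling between arrays, giving log2 sample over reference. For the lower bounds of a fold alone, the mean log2 signal of both channels was then quantile normalized between arrays. Spots of a probe were averaged, outlier spots were set missing, and probes above background on at least 3 of the 31 fitted arrays were retained (31563 of 41174 probes). Of the probes, 24844 were named through a RefSeq accession, and each gene was read at its brightest kept probe; 18 of the 40 genes had more than 1. One linear model with a mean per group was fitted over the 31 arrays with empirical Bayes moderation, and p-values were adjusted by Benjamini-Hochberg over all genes, with a threshold of 0.05, for 15 comparisons of groups and 2 of responses. Replicate 1 of TGFα off 4 weeks and replicates 2 and 3 of the TGFα tumors were left out for their other reference profile. The model took the arrays as independent, but the within-slide correlation was 0.435. All 3 livers 12 weeks off TGFα/Myc were on the same slide, and all 3 livers 12 weeks off TGFα on another. Standard errors and p-values of the main fit do not take this into account. The fit was tested on simulated data with known changes, with independent noise and no effect of slide, scan day or scanner. The simulation thus cannot show how such effects bear on the calls. The number of arrays limits the precision, and p-values measure the spread between the deposited samples. Promoter windows were taken from RefSeq on GRCm38.p6, where 24 of the 40 genes had an entry. Alternatives tried were other signals, filters, blocks and probe rules, the series table, and each array left out. The values of 1 gene of the other lists are not reported here.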

Additional observations from a re-analysis of the deposited data

Results flagged for a closer look

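In 4 of the 40 genes Myc tumor replicate 6 lay far from the other 6 tumors by Dixon's rule. It read 2.15 for Col4a2 (nearest other tumor 0.98), 1.92 for Col6a2 (nearest 0.48), 1.67 for Loxl2 (nearest 0.58) and 3.36 for Vim (nearest 1.79). Only the group of Myc tumors was large enough for this rule, so 40 values were examined, and chance alone gives about 1 such value in 20.

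Tumors of both transgenes differed from Myc tumors in 8 of the 40 genes by limma over all genes, where 25% of all genes were called. With scan day as a block, which rests on Myc tumor 1 alone among the Myc tumors, 1 of the 8, Thbs1, was called and Timp1 turned its sign. The log2 differences, TGFα/Myc minus Myc, were -2.20 for Timp1, -1.57 for Col4a1, -1.28 for Thbs1, -0.85 for Col4a2, -0.82 for Thy1, -0.82 for Acta2, 1.90 for Dcn and 2.19 for Reln. The responses at 4 weeks off differed between TGFα/Myc and Myc by -2.68 for Pdgfrb, -1.07 for Loxl1 and 2.05 for Timp1.

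The array labelled TGFα tumor replicate 1 entered no comparison. It lay over 1 log2 unit above the highest control in 4 genes, with 2.53 for Thbs1 (highest control 0.12), 1.71 for Ccn2 (0.10), 1.30 for Col4a1 (-0.39) and 0.62 for Col1a1 (-0.44). The 3 Myc probes read a saturated 3.28, 3.55 and 1.37 on this array. Whether its label is right was not tested.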

How the results depend on the processing

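Counts below are of the 40 genes past the threshold. Where Myc tumors are compared, scan day as a block leaves 1 informative tumor, replicate 1. For Myc tumors against controls (17) the count was 8 with scan day as a block and 9 to 21 with an array left out, the lowest without control 3. For 12 weeks off Myc against tumors (14) it was 1 with scan day as a block and 9 to 19 with an array left out, the lowest without liver 1 of that group. For 4 weeks off Myc against tumors (10) it was 7 to 15. For TGFα/Myc against Myc tumors (8) it was 2 with scan day as a block, 5 with slide as a random block, and 4 to 11 with an array left out (4 without TGFα/Myc tumor 2, 5 without TGFα/Myc tumor 3). For 4 weeks off TGFα/Myc against its tumors (2) it was 1 with no filter, with all 34 arrays and with the mean over probes, 0 with slide as a random block and without the 3 arrays in doubt, and 0 to 2 with an array left out. At 12 weeks (0) it was 1 with Agilent's processed signals and with the series table. For the response at 4 weeks (3) it was 1 with the series table and with slide as a random block, and 2 to 5 with an array left out (5 without Myc tumor 5). For the response at 12 weeks (0) it was 1 with Agilent's processed signals, 2 without background subtraction, with the half-array filter, with the series table and without the 3 arrays in doubt, and 0 to 3 with an array left out. The other comparisons stayed at 0 in the alternatives run, but for the block below. The median difference of the 40 genes changed sign for 12 weeks off Myc against controls (0.14, and -0.11 with Agilent's processed signals and -0.20 with the series table), for 12 weeks off TGFα against controls (0.02, and -0.03 and -0.25 with the same sources), for 4 weeks off Myc against tumors (-0.11, and 0.21 with the replicate number as a block and 0.06 without the 3 arrays in doubt), for 12 weeks off TGFα/Myc against its tumors (-0.05, and 0.02 with slide as a random block and 0.27 with scan day blocked), for 4 weeks off TGFα/Myc against controls (0.08, and -0.05 without the 3 arrays in doubt) and for TGFα/Myc against Myc tumors (-0.27, and 0.07 with the replicate number as a block). Leaving out 1 array also turned it for 4 weeks off Myc against tumors (up to 0.08), 12 weeks off TGFα against controls (down to -0.05), 12 weeks off TGFα/Myc against its tumors (up to 0.11) and 4 weeks off TGFα/Myc against controls (down to -0.05). The alternatives without the 3 arrays in doubt and with Myc tumors 3 and 4 averaged were chosen after seeing the data. The cause of these changes was not tested.

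With the replicate number as a block, the count was 12 for Myc tumors against controls, 14 and 11 for 4 and 12 weeks off Myc against tumors, 3 for 4 weeks off TGFα/Myc against its tumors, 11 for TGFα/Myc against Myc tumors, 1 for 4 weeks off TGFα/Myc against controls, and 12 and 4 for the responses at 4 and 12 weeks. Same-numbered arrays correlated at -0.40 to 0.57 in their deviations over 84 pairs, and in 2 of 28 group pairs every correlation was over 0.1. In these, controls with livers 12 weeks off TGFα/Myc and off TGFα, the block changed no call. The numbers do not otherwise pair the samples. Scan day as a block could not be fitted for comparisons with livers 4 weeks off TGFα/Myc or off TGFα.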
